A study of Mus musculus with 12 samples.

Results

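Among the hypomethylated regions (HMRs) of mouse pancreatic b cells, 240 lost at least 20 percentage points of methylation between postnatal day 2 (P2) and postnatal day 60 (P60) in both of the lineage-marked subtypes. They were taken from 81983 eligible regions, so the rule selected 0.293% of them. An HMR is a stretch of the genome where CpGs carry much less methylation than the DNA around it. The HMRs of the 4 pools of reads, one per subtype and stage, were merged where they overlapped. Eligible regions were autosomal, shorter than 5 kb and had at least 50 CpG calls in each pool, a call being the state of 1 CpG in 1 read. The level of a region is the methylated share of all its calls in a pool. The 240 regions were chosen by their pooled P2 and P60 levels, so their fall is given as a description and was not tested.

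Whole-genome bisulfite sequencing was done on b cells sorted from islets of MNYI mice, which carry Myt1cCre, Ngn3nCre, Rosa26eYFP and InsApple in every group. Inactive parts of Cre are driven from Myt1 and Ngn3, so that eYFP+ cells descend from progenitors in which both were expressed (M+N+), while eYFP- cells (M-N+) carry no such mark. Apple, driven from an insulin gene, marks the b cells for sorting. There were 2 libraries of each subtype from P2 mice and 4 of each from P60 mice. Several sorts, each from several animals, were combined for each stage and sex. Whether P60 libraries of the same subtype and sex came from separate animals is not stated. The labels call the reporter eGFP in the titles and give the cell type as all islet cells, and the sorted b cells are named in the titles. The 2 columns of each pooled table carry no subtype name, and they were taken as eYFP- and eYFP+ in that order; the choice does not affect which regions fell in both.

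DNA methylation at CpGs is copied after replication by maintenance enzymes, written by de novo methyltransferases, and lost either by passive dilution or through oxidation by TET enzymes. Low methylation away from gene starts is a usual property of enhancers bound by transcription factors. Newborn b cells divide and respond poorly to glucose, and they gain their adult secretory response during the first weeks of life.

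The pools held a mean of 24.4 calls per CpG for eYFP- and 24.6 for eYFP+ cells at P2, and 44.1 and 43.9 at P60, so that P60 levels are the more precise. Promoters of 9 b-cell markers were between 0.773% (Pdx1) and 83.2% (G6pc2) methylated in the pools, so that low promoter methylation was not found at each of them. Those of alpha (1.19% to 83.1%), delta (0.989% to 75.3%), duct (7.35% to 87.8%), mesenchymal (19.0% to 52.2%) and endothelial markers (21.0% to 76.8%) also included low values. Those of acinar (43.7% to 85.8%), PP (47.5% to 83.8%) and immune markers (50.3% to 81.5%) did not. All P2 libraries carry one run prefix and the P60 libraries carry others, so stage and sequencing run cannot be told apart. Of 253 X-chromosome regions with an HMR in every male and in no female P60 library, 91.7% had one in the P2 eYFP- library labelled female and 13.4% in that labelled male. The sexes of these libraries thus go against their labels. For P2 eYFP+ cells the shares were 13.0% in the library labelled female and 83.8% in that labelled male.

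The regions in or nearest to the genes for the prolactin receptor, the GLP-1 receptor, urocortin 3, the sulfonylurea receptor and the clock factors Nr1d2 and Rora are printed here to show how few CpGs carry the fall. Each is given on the forward strand of mm39, with every counted CpG in capitals. Where a region is longer than 300 bases, the 300-base stretch starting at a CpG and holding the most CpGs is shown. None of the printed stretches overlaps an annotated exon of a protein-coding gene. The coordinates of the printed stretches are, in the same order, chr15:10179802-10180101, chr15:10225783-10226040, chr17:31125464-31125763, chr17:31129959-31130120, chr13:3993712-3994011, chr7:45824076-45824375, chr14:4243145-4243274 and chr9:68468124-68468423.
Prlr, first region: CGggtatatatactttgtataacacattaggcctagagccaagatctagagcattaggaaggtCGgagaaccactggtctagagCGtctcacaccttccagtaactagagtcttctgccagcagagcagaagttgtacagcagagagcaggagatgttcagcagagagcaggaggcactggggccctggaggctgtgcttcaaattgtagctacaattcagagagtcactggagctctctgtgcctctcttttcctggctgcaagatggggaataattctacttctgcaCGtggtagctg
Prlr, second region: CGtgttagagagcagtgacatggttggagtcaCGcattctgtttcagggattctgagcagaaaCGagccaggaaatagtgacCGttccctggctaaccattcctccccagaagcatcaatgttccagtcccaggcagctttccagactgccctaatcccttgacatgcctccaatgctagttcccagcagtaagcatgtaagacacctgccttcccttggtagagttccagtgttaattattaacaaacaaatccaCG
Glp1r, first region: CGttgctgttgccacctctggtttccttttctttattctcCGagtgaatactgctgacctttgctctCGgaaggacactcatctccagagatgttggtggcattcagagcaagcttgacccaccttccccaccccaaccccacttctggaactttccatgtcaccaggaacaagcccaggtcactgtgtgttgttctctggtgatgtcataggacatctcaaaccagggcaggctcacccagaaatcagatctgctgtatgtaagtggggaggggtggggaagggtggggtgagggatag
Glp1r, second region: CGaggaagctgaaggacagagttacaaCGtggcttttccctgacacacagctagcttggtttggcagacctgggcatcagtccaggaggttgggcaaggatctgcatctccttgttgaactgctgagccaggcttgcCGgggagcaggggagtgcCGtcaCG
Ucn3: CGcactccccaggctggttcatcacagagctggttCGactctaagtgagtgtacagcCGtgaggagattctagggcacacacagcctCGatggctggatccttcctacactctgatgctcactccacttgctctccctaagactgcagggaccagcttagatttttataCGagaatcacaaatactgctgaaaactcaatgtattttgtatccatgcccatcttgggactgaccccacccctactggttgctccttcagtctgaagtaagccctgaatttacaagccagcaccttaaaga
Abcc8: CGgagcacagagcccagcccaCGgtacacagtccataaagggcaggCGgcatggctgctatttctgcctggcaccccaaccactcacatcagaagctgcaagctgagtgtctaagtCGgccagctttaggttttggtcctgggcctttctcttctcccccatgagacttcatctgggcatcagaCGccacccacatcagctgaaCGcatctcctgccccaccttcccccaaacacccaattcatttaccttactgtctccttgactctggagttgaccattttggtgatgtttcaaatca
Nr1d2: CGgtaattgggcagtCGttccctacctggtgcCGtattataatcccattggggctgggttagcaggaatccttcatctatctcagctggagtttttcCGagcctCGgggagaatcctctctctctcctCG
Rora: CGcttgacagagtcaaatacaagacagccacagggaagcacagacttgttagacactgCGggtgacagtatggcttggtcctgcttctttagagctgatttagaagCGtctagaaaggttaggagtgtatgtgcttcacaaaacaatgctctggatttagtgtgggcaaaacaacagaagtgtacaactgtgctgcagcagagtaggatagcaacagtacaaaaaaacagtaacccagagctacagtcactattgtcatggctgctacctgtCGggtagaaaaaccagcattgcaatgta

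Across the 240 regions the median level at P2 was 39% in eYFP- cells and 42.3% in eYFP+ cells, and at P60 it was 11.8% and 13.1%. The regions were therefore already below the methylation of the surrounding DNA in newborn cells. At P2 the middle 50% of regions lay between 33.5% and 46.7% in eYFP- cells and between 35.3% and 48.3% in eYFP+ cells. At P60 the corresponding ranges were 7.14% to 16.8% and 8.41% to 17.4%. Only 27 regions were above 50% in both subtypes at P2, whereas 189 were below 20% in both at P60 and 63 were below 10% in both. The median fall was 25.52 points in eYFP- and 27.25 points in eYFP+ cells. In 216 of the 240 regions the 2 falls were within 10 points of each other, and their median absolute difference was 3.37 points. The smaller of the 2 falls was at least 30 points in 54 regions and at least 40 points in 11.

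**Figure D1:**
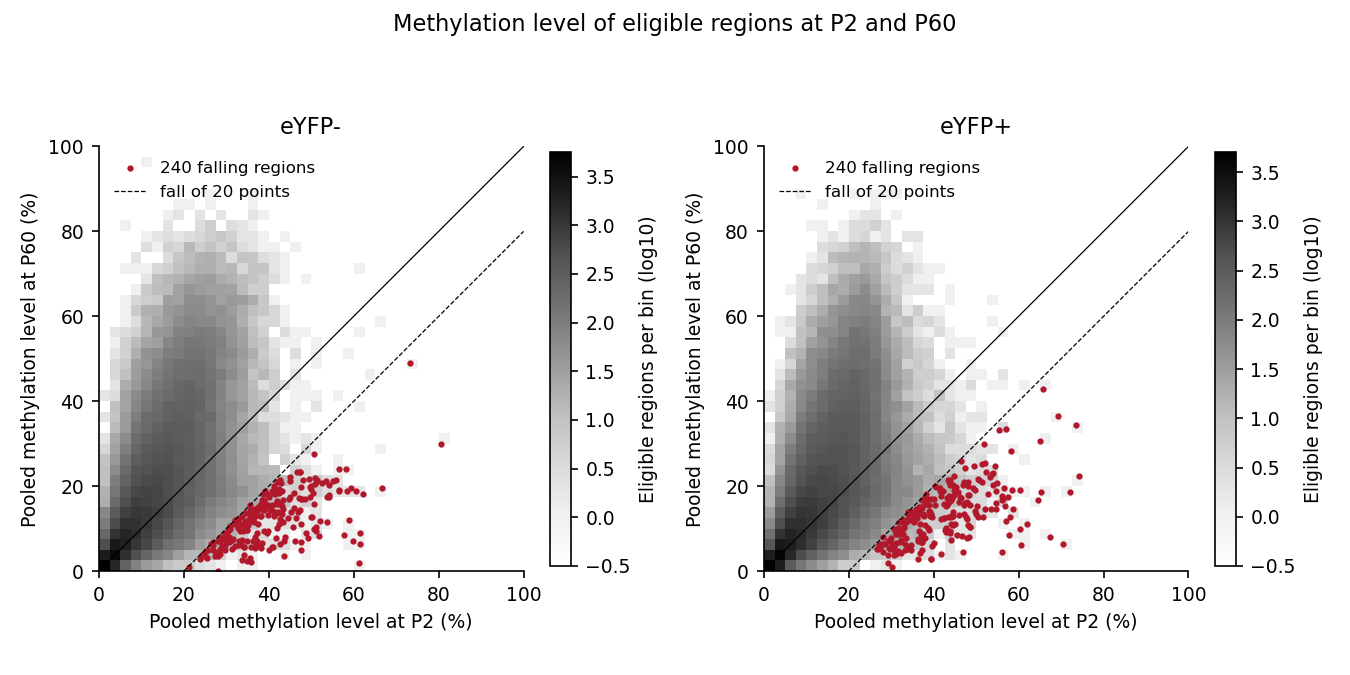
Pooled methylation level at P2 (x axis, %) against P60 (y axis, %) for eYFP- (left) and eYFP+ (right) cells. Grey squares give the number of eligible regions per bin on a log10 scale, red points the 240 falling regions, the solid line equal levels and the dashed line a fall of 20 points. The falling regions mostly lie just past the dashed line, with a median P2 level of 39% in eYFP- and 42.3% in eYFP+ cells.

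Falls were rarer than rises. By the same threshold 8383 regions gained at least 20 points in both subtypes, or 10.2% of the eligible regions. The median eligible region rose by 3.08 points in eYFP- and by 2.56 points in eYFP+ cells, so the 240 regions moved against the prevailing direction. At the threshold, regions just inside were near Oas2 and Irs2, with smaller falls of 20.03 and 20.05 points. Just outside were regions near Thrb, Snrnp48 and Atp2a2, with 19.97, 19.85 and 19.82 points.

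The loss was spread over most CpGs of the regions. Of 2001 CpGs in the 240 regions, 1922 had at least 10 calls in each of the 4 pools, and 1762 of these (91.7%) were lower at P60 in both subtypes. In 168 regions (70.0%) this held for all such CpGs. Over all eligible regions 8.17% of CpGs were lower in both. The rule summed the calls of these same CpGs, so a high share in the 240 regions follows in large part from how they were chosen. In the DNA 1 to 5 kb to either side, outside any HMR, the median level was 79.0% and 79.6% at P2 and 81.4% and 80.5% at P60 in eYFP- and eYFP+ cells. These flanks rose by a median of 1.64 and 0.54 points, compared with 1.23 and 0.08 points in the flanks of all eligible regions.

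**Figure D2:**
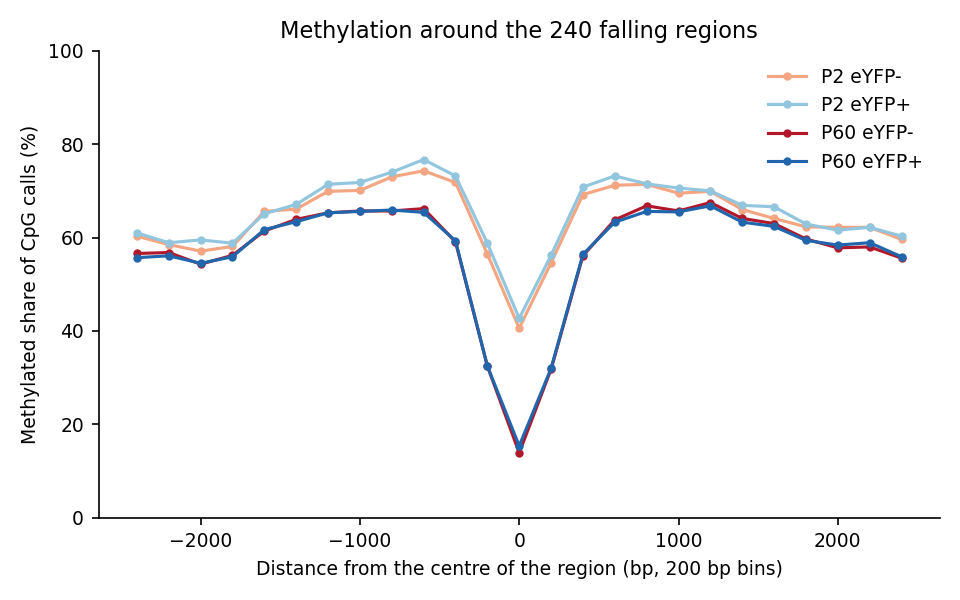
Methylated share of CpG calls (y axis, %) summed over the 240 falling regions in 200 bp bins by distance from the centre of the region (x axis, bp), one line per pool. At the centre the share was 40.6% and 42.7% at P2 and 13.9% and 15.4% at P60 in eYFP- and eYFP+ cells, and the lines of the 2 subtypes lie close together.

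The P2 profile already dipped at the centre, from 74.3% at 600 bp upstream to 40.6% in eYFP- cells, and the P60 dip went from 66.2% to 13.9%. Unlike the flanks above, these bins include neighbouring HMRs. All 240 regions held an HMR in at least 1 P60 pool, and 212 (88.3%) held none in either P2 pool. The other 28 (11.7%) had an HMR at both stages, compared with 67.4% of all eligible regions. The falling regions were short, with a median length of 300.5 bp and 6 CpGs, and ranged from 11 to 3930 bp. The median length was 402 bp for rising and 524 bp for all eligible regions. They held a median of 2.15 CpGs per 100 bp and 46.0% GC, compared with 2.36 CpGs and 49.3% GC over all eligible regions.

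Most of the falling regions were away from gene starts. The centre of 130 regions (54.2%) was in an intron of a protein-coding gene, of 86 (35.8%) between genes, of 9 in a coding exon and of 15 in other exonic sequence. Only 27 (11.2%) were in a promoter, taken as 2 kb upstream to 500 bp downstream of a start, compared with 20.4% of all eligible and 8.89% of rising regions. The median distance to the nearest start of a protein-coding gene was 20454 bp, against 14577 bp over all eligible and 21684 bp over rising regions. An intron held the centre of 54.0% of rising and 41.5% of all eligible regions, so the rising regions shared this placement. The regions fell near 225 different genes, and 13 of them were within 10 kb of another falling region.

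The single libraries were deposited as HMR positions without counts, and show how often a call was made in each. Because these calls come from the reads that make up the pools, the difference between stages is again a description. At P2 the libraries overlapped 6.67% and 7.08% of the 240 regions in eYFP- cells and 6.67% and 5.83% in eYFP+ cells. At P60 the eYFP- libraries overlapped 38.8%, 54.6%, 34.2% and 43.3%, and the eYFP+ libraries 32.1%, 45.4%, 29.2% and 45.0%. Every P60 library was above every P2 library. For all eligible regions the order was opposite, with 65.9% to 71.1% at P2 and 43.9% to 56.2% at P60. An HMR was called in no P2 library and in at least 1 P60 library for 142 regions, of which 73 had it in at least 4 of the 8 P60 libraries and 21 in all 8. In 75 regions no library of either stage had a call, so those HMRs were seen only after pooling. In no region was the share of P2 libraries with a call larger than that of P60 libraries.

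**Figure D3:**
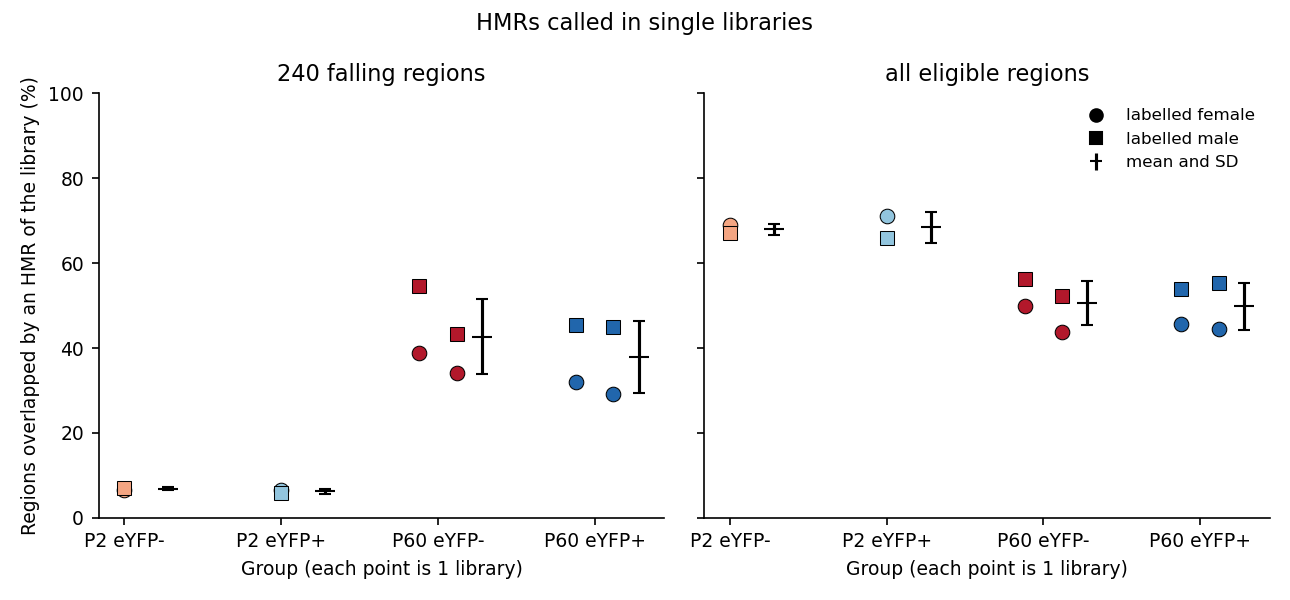
Percent of regions overlapped by an HMR of each single library (y axis) for the 240 falling regions (left) and all eligible regions (right), by group (x axis). Points are libraries, circles labelled female and squares labelled male, with the mean and SD of each group beside them. The P2 libraries lie between 5.83% and 7.08% for the falling regions, below all P60 libraries.

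The P60 libraries of the subtypes overlapped in range, with means of 42.7% ± 8.76 (SD, n = 4) for eYFP- and 37.9% ± 8.51 (SD, n = 4) for eYFP+ cells (two-sided exact permutation test, p = 0.514). Among same-numbered libraries, which share a sex label and a run prefix, the eYFP+ library was lower in 3 of 4 pairs. Divided by its share of all eligible regions it was lower in 4 of 4 pairs, with differences of -0.127 to -0.0166 (exact permutation test, p = 0.125, the smallest that 4 pairs allow). Those of male mice lay between 43.3% and 54.6% and those of female mice between 29.2% and 38.8% (exact permutation test, p = 0.0286, the smallest this design allows). This test counts same-numbered libraries of the 2 subtypes as separate, although their calls deviated together, so its p is too small. Among P60 replicates 1 and 2, and again among P60 replicates 3 and 4, both male libraries were above both female libraries. The male libraries also had calls in more of all eligible regions, 52.3% to 56.2% against 43.9% to 49.9%. Divided by the share of all eligible regions, male libraries were at 0.813 to 0.970 and female libraries at 0.657 to 0.779. The 4 tests made on these libraries were chosen after the values were seen. Adjusted over them, the sex difference had an exact permutation p of 0.0571 for both measures. The falling regions were themselves chosen by pooled levels that include the reads of these P60 libraries. The tests of this paragraph therefore cannot decide whether the subtypes or sexes differ, and the shares are a description.

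The region with the largest smaller fall was in an intron of Cog7, a subunit of the Golgi tethering complex, at chr7:121573744-121574000. It went from 61.2% to 2.05% in eYFP- and from 67.3% to 8.02% in eYFP+ cells, but rests on 4 CpGs. Among regions with at least 5 CpGs and 100 calls per pool, the deepest lay in an intron of Car10, a carbonic anhydrase-related gene, at chr11:93421982-93422249. It went from 61.5% to 6.35% in eYFP- and from 60.6% to 6.23% in eYFP+ cells. Its nearest start, of Utp18, is 344853 bp away. No single library had an HMR there.

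Both clock-linked nuclear receptors among the falling regions were also near the top. Nr1d2 encodes a repressor and Rora an activator of the circadian feedback loop, and both bind the same response elements. The Nr1d2 region, in an intron 12524 bp from a start, was 61.6% methylated in eYFP- (95% Wilson interval 53.6 to 69.0) and 72.1% in eYFP+ cells (62.8 to 79.8) at P2. At P60 it was at 9.06% (6.30 to 12.9) and 18.6% (13.9 to 24.5). In the printed sequence all 6 CpGs were lower at P60 in both subtypes, and the last 3 were at 0% in eYFP- cells. The Rora region, 93123 bp upstream of the gene, went from 58.8% to 12% in eYFP- and from 57.7% to 8.48% in eYFP+ cells. Its first 3 CpGs were at most 28.1% at P2 already, while the 4 CpGs of the printed stretch were between 63.2% and 95.8% at P2 and between 0% and 24% at P60. Such intervals treat calls as independent, although several calls can come from 1 read. They are therefore too narrow even for counting error, and they leave out the spread between animals.

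The other regions of highest rank were near genes of varied function. The Necab2 region, 1174 bp upstream of a start of this calcium-binding protein gene, went from 57.7% to 8.66% in eYFP- and from 70.5% to 6.42% in eYFP+ cells. An intronic region of Ano6, which encodes a calcium-activated lipid scramblase, fell from 66.7% to 19.7% and from 74.3% to 22.4%. Regions in introns of Nup214, a nuclear pore protein, and Iws1, a transcription elongation factor, had P60 levels of 8.28% to 12.8% and 9.94% to 11.5%. Intergenic regions 203830 bp from Trps1, a GATA-type repressor, and 97889 bp from Hey1, a Notch target, had smaller falls of 39.25 and 38.04 points.

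**Figure D4:**
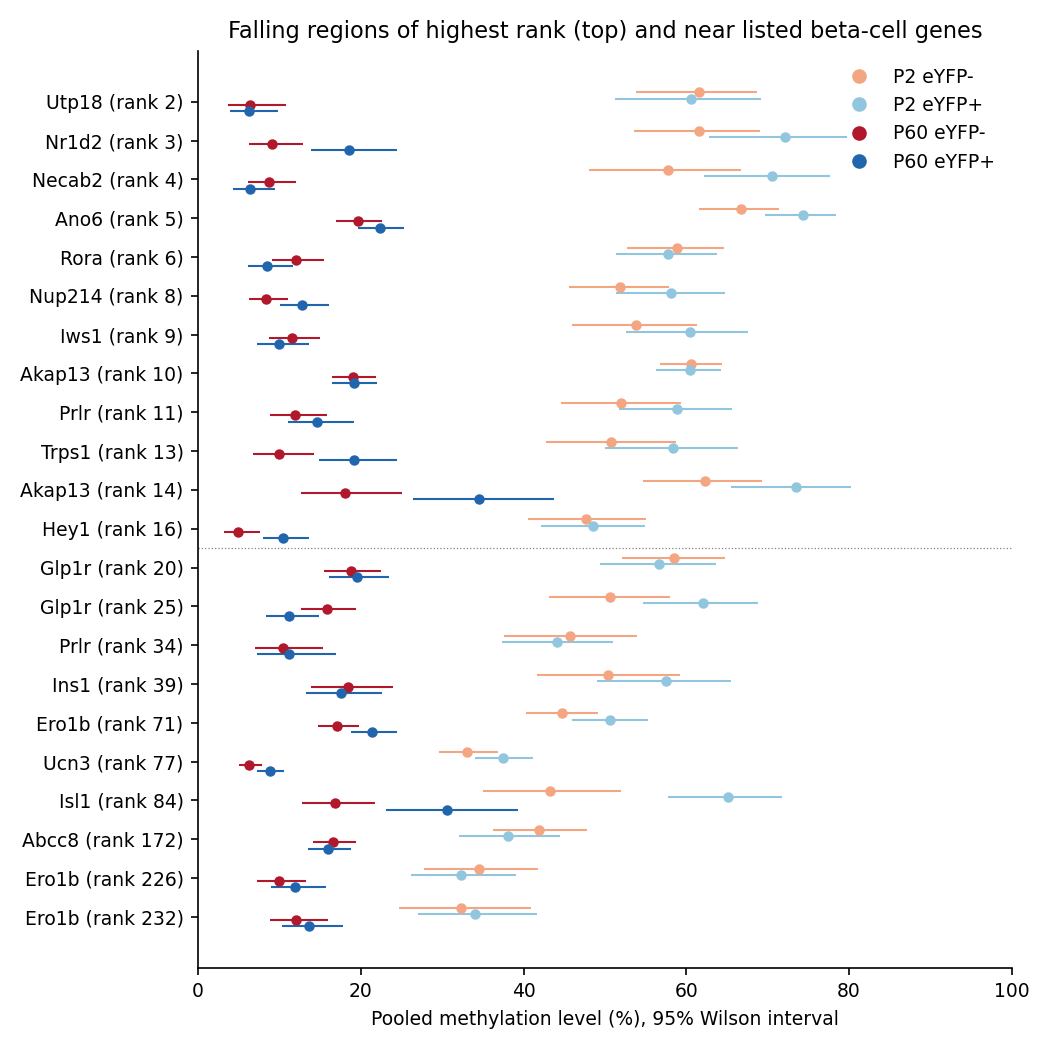
Pooled methylation level with its 95% Wilson interval (x axis, %) in the 4 pools for the 12 regions of highest rank (above the dotted line) and the other regions nearest to genes of the mature b-cell list (below), each labelled by its nearest gene and rank. In every row both P60 points lie to the left of both P2 points, for example at 6.35% and 6.23% for the region nearest to Utp18.

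Several genes had more than 1 falling region. Akap13, which encodes a protein kinase A anchor, had 3, all within the gene. They lay at chr7:75259286-75260440, chr7:75261362-75263497 and chr7:75305517-75305725, the first pair around alternative starts. Their levels went from 60.6%, 50% and 62.3% at P2 to 19%, 12.7% and 18.1% at P60 in eYFP- cells. In eYFP+ cells they went from 60.4%, 56.1% and 73.5% to 19.1%, 16.8% and 34.5%. Ero1b, an oxidase that forms disulfide bonds in the endoplasmic reticulum (ER), had 2 intronic regions and 1 further region 61341 bp from its start. Genes with a pair of regions included Ankrd55, Glp1r, Manf, P4ha2, Pde4b, Prlr, Stk32a and Trps1.

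Of 14 lists of genes, that of mature b-cell function held the nearest gene of more falling regions than any other list, and all lists together of 23. Its genes Abcc8, Ero1b, Glp1r, Ins1, Isl1, Prlr and Ucn3 were nearest to 11 of the 240 (4.58%), against 0.515% of all eligible and 0.644% of rising regions. Ero1b was nearest to 3 of the 11, and Glp1r and Prlr to 2 each. This list, like the others, was chosen with earlier results of these data known, so the shares are a description. With starts of every biotype in place of those of protein-coding genes, 5 falling regions were nearest to a gene of this list. The share of all eligible regions was not counted under that setting, so the 5 cannot be set against 0.515%. No gene of the lists of disallowed or immature b-cell genes, exocytosis and calcium channels, DNA methylation machinery and other islet cells was nearest to a falling region. These lists hold the nearest gene of 0.485%, 0.576%, 0.177% and 0.161% of all eligible regions. The list of nuclear and hormone receptors had 3 (1.25%; Nr1d2, Ppara and Rora), against 0.705% of all eligible regions. The circadian list had 2 (0.833%; Nr1d2 and Rora), against 0.167%, and the list of cell cycle and growth 2 (Foxo1 and Irs2), against 0.456%. Wnt, BMP and planar polarity had 2 (Smad7 and Tcf7l1), against 0.742%, and exocrine cells 2 (Krt7 and Sox9), against 0.137%. The lists of potassium and other channels (Ryr2), metabolism (Pdp1), endocrine progenitor factors (Sox9) and endothelial, mesenchymal and immune cells (Dcn) had 1 each (0.417%), against 0.431%, 0.290%, 0.393% and 0.167%. Counts this small were not tested. Many of these genes were far away, such as Sox9 at 562976 bp and Dcn at 267572 bp, so the nearest gene need not be one the region regulates. The same holds on the mature list, with Ins1 at 322978 bp and Isl1 at 263155 bp.

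The receptors on the mature list had a pair of regions each. Prlr, through which prolactin and placental lactogens act on b cells, had its first region 2122 bp downstream of a start, at 52.0% and 58.8% at P2 and 11.9% and 14.6% at P60 in eYFP- and eYFP+ cells. Its second region, 1988 bp downstream of another start, went from 45.7% to 10.4% in eYFP- and from 44.1% to 11.2% in eYFP+ cells. Along the printed first sequence the opening 3 CpGs were at 68.6% to 88.9% at P2, whereas the fourth was already at 10.5% and 17.9%. At P60 the opening 3 were at 14.3% to 28.8% and the fourth at 1.69% and 2.33%. This CpG lies within a CACGTG E-box at bases 288 to 293 of the printed sequence. In the central 200 bp, CACGTG was in 3.75% of falling, 4.94% of rising and 4.47% of all eligible regions.

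Glp1r encodes the receptor through which the gut hormone GLP-1 raises cAMP and potentiates insulin secretion. Its first region, in an intron 4832 bp from the start, went from 58.5% to 18.8% in eYFP- and from 56.7% to 19.5% in eYFP+ cells. The second, 9206 bp from the start, went from 50.6% to 15.8% and from 62.0% to 11.2%. The CpGs did not fall to the same level. In the first sequence the third CpG remained at 41.7% and 45.1% at P60, while the first and second were between 9.52% and 13.6%. In the second sequence the first CpG remained at 43.2% and 32.1%, and the other 4 were between 1.35% and 12.4%. No library called an HMR at the first region and 1 of the P60 libraries did at the second.

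**Figure D5:**
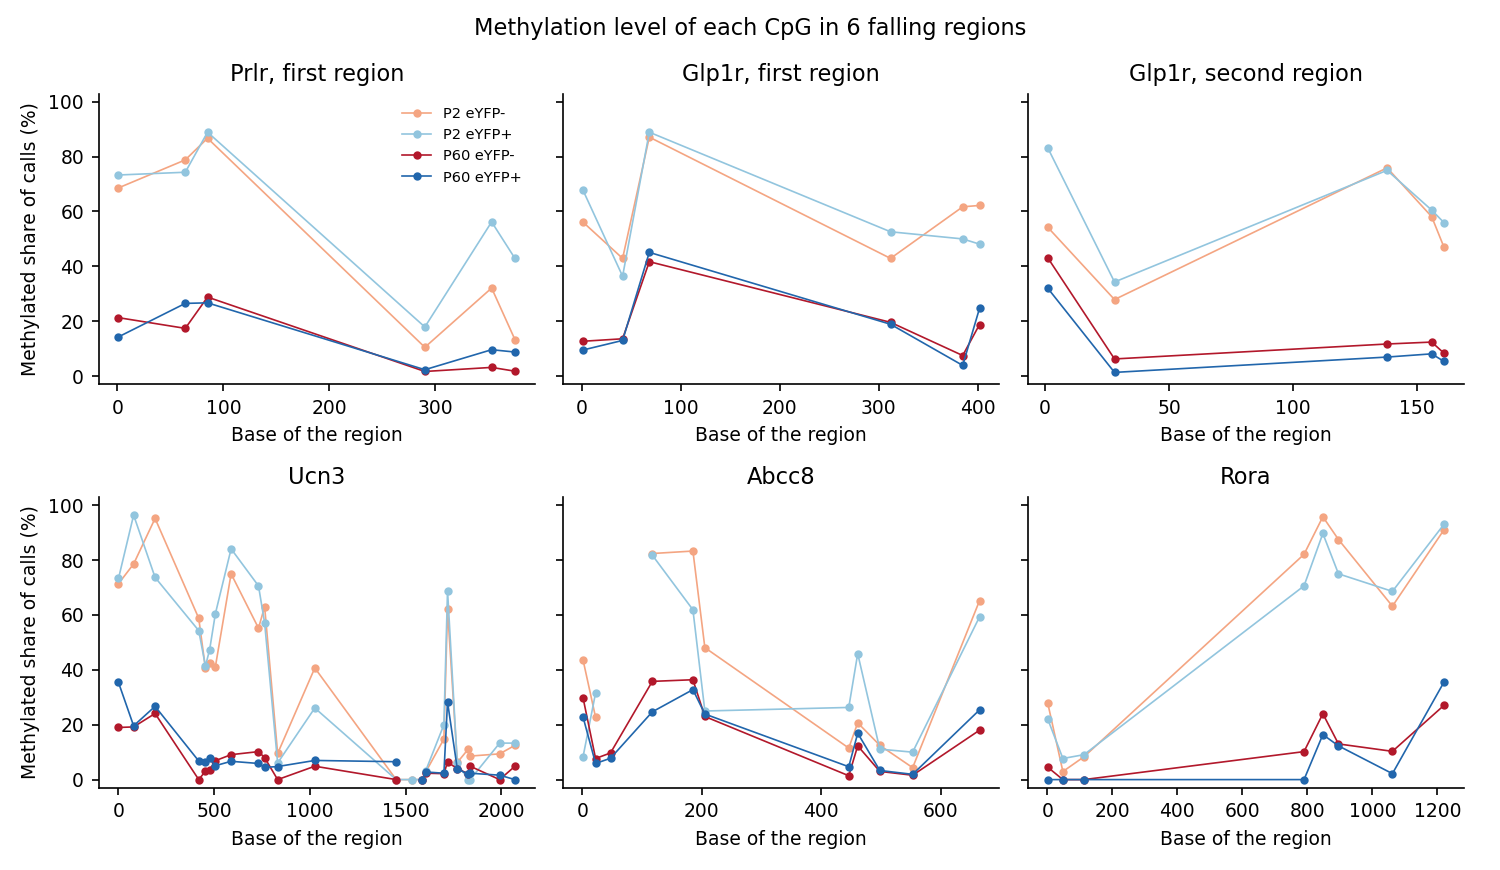
Methylated share of calls (y axis, %) of each CpG against its base in the region (x axis, counted from its first base) for 6 falling regions, one line per pool. Most CpGs are lower in both P60 pools, and CpGs that were already low at P2, such as several at the far end of the Ucn3 region, stayed low.

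Ucn3, a peptide that mature b cells release and that promotes somatostatin secretion, had a region of 23 CpGs at chr13:3993293-3995363. It fell from 33.1% to 6.31% in eYFP- and from 37.5% to 8.78% in eYFP+ cells. An HMR was called in all 4 P2 and all 8 P60 libraries, so that part of the region was already hypomethylated at P2. In the printed stretch the 5 CpGs were between 40.5% and 84.1% at P2 and between 0% and 9.09% at P60, whereas those at bases 1451, 1588 and 1604 of the region were at most 6.52% at both stages. The Ucn3 promoter itself, from 1 kb upstream to 500 bp downstream of the gene's start, was at 37.1% and 42.8% at P2 and at 40.1% and 40.8% at P60. Abcc8 encodes the sulfonylurea receptor, a subunit of the ATP-sensitive potassium channel. Its intronic region went from 41.9% to 16.6% in eYFP- and from 38.1% to 15.9% in eYFP+ cells, and all 8 P60 libraries but no P2 library had an HMR there. The third CpG of its printed sequence had no call at P2.

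Of the remaining regions nearest to genes of this list, that near Ins1 was 322978 bp away and went from 50.4% to 18.4% in eYFP- and from 57.5% to 17.5% in eYFP+ cells. The promoter of Ins1 was also lower at P60, with 25.4% and 31.6% at P2 and 8.29% and 7.69% at P60. The 3 Ero1b regions had P2 levels between 32.3% and 50.6% and P60 levels between 9.89% and 21.4%. The region near the LIM-homeodomain gene Isl1 was only 41 bp long and 263155 bp from its start.

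Other falling regions were within genes of the secretory pathway, a group that was picked after the regions were seen and is on no list. Wfs1 encodes an ER membrane protein that protects b cells from ER stress, and its intronic region at chr5:37136329-37136576 fell from 55.8% to 21.6% in eYFP- and from 44.4% to 17.3% in eYFP+ cells. Manf, a secreted ER stress factor, had 2 adjacent regions with P2 levels of 41.8% to 54.7% and P60 levels of 10.1% to 15.9%. Sar1a and Sar1b, GTPases that form the COPII coat, had P60 levels of 3.90% and 6.89% in eYFP- cells, from 24.3% and 33.6%. The COPII subunit gene Sec24d went from 51.0% to 20.6%, and Sec61g, of the ER translocon, from 46.6% to 23.4%. The region in Pam, which amidates peptide hormones, went from 30.7% to 6.99%. In eYFP+ cells each of these regions fell by at least 20 points too, as the rule required. How many other secretory genes had no falling region was not counted.

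Genes of metabolism and signalling were found in the same way. A region of 30 CpGs in the fructose transporter gene Slc2a5 went from 41.0% to 5.76% in eYFP- and from 40% to 6.61% in eYFP+ cells. Acly, which makes cytosolic acetyl-CoA, went from 47.5% to 19.9% and from 48.1% to 21.0%. Adcy9, an adenylyl cyclase, fell from 41.9% to 13.8% in eYFP- cells, and a region at a start of Pde4b, a cAMP phosphodiesterase, from 28.3% to 7.13%.

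The comparison of eYFP+ with eYFP- cells drew on the same pooled counts as the rule, which did not use the difference between subtypes but bounds the levels of both, so that the counts called are a description. It was tested at each stage by applying Fisher's exact test (two-sided) to the calls of each region, with adjustment over all 81983 regions. At P60, 15 of the 240 regions (6.25%) passed an adjusted p of 0.05, against 1.93% of all eligible regions. The level was higher in eYFP+ cells in 8 of the 15 and lower in 7. At P2, 3 regions (1.25%) passed, against 2.05% of all eligible regions, with eYFP+ higher in 2 and lower in 1. The median difference of eYFP+ minus eYFP- over the 240 regions was 2.97 points at P2 and 1.16 points at P60. Over all eligible regions it was 0.19 and -0.11 points. The test compares pools of reads, and since calls of 1 read are counted separately and libraries are not, its p-values are too small.

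The region with the smallest adjusted p at P60, 829769 bp from Tyrp1, was at 24.2% in eYFP- and 16.9% in eYFP+ cells (Fisher's exact test, adjusted p = 3.29e-06), a difference of -7.3 points that was not the largest. Its number of calls rose 3.03-fold from P2 to P60, compared with a median of 1.98-fold over all eligible regions. An intronic region of the zinc finger gene Zfp523 was at 20.9% in eYFP- and 7.91% in eYFP+ cells (Fisher's exact test, adjusted p = 3.06e-04), having been at 52.6% and 47.9% at P2. A region whose nearest gene is the cadherin Cdh8 was at 18.9% in eYFP- and 36.6% in eYFP+ cells (Fisher's exact test, adjusted p = 6.58e-04). At P2, an 11 bp region in an intron of Ryr2, the ryanodine receptor calcium channel, was at 80.6% in eYFP- and 40.3% in eYFP+ cells (Fisher's exact test, adjusted p = 7.25e-05). Its 6 CpGs lie so close together that most calls share a read. The Isl1 region was at 43.3% and 65.1% (Fisher's exact test, adjusted p = 0.0222). A region of 40 CpGs in an intron of Myo3a, nearest to the Gad2 start, was at 43.2% and 49.7% (Fisher's exact test, adjusted p = 0.0304), and its calls rose 4.40-fold between the stages. None of these 3 differences was called at P60, where the adjusted p was 0.616, 0.0947 and 0.366. The Isl1 region was still at 16.8% in eYFP- and 30.6% in eYFP+ cells then, on 268 and 121 calls (Fisher's exact test, unadjusted p = 0.00299). The Ryr2 region was at 30% and 20%, and the Myo3a region at 15.4% and 14.1%. Whether the difference changed between the stages was not tested.

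A set of 21 short motifs, of b-cell and other transcription factors, was searched on both strands in the central 200 bp of each region. FOXA (TGTTTAC) was present in 8.33% of the falling regions, 6.41% of the rising and 5.72% of all eligible regions. The MAF motif TGCTGAC was in 6.67%, 5.31% and 4.90%, and the NEUROD1 E-box CAGATGG in 9.17%, 8.80% and 6.93%. The nuclear receptor motif AGGTCA was in 15.8%, 13.4% and 12%. For all 4 the share over all eligible regions lies within the 95% Wilson interval of the falling regions, such as 5.46% to 12.5% for FOXA and 11.8% to 21.0% for AGGTCA. Other motifs of b-cell factors were near or below that share. The homeodomain motif TTAATTA was in 4.58% of falling and 4.57% of all eligible regions, and NKX2-2 in 2.92% and 2.79%. RFX was in 2.92% and 3.26%, HNF1 in 0.417% and 1.28%, and HNF4 in 0% and 0.362%. The GATA motif AGATAAG was in 2 falling regions (0.833%, Wilson interval 0.229 to 2.99), against 5.74% of rising and 3.29% of all eligible regions. The TEAD motif GGAATGT was in 1 (0.417%), against 3.41% and 2.77%, and the ONECUT motif ATCAATA in 2 (0.833%), against 4.06% and 2.63%, the latter within the Wilson interval of 0.229 to 2.99. The CTCF motif was in none of the falling regions and in 2.30% of all eligible regions. The falling regions are also lower in GC than all eligible regions, and the part of base composition in these shares was not tested. In the printed sequences the first Glp1r stretch holds TGCTGAC at bases 52 to 58 and AGGTCA at bases 178 to 183 and, on the reverse strand, 55 to 60. The second Prlr stretch holds the homeodomain motif TTAATTA at bases 234 to 240. The HNF1 motif GTTAATNAT overlaps it at bases 233 to 241 and, on the reverse strand, 237 to 245. Neither motif contains a CpG there.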

How the data were processed

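Tagmentation-based whole-genome bisulfite sequencing was done on 12 libraries of sorted b cells. Per the labels, reads were trimmed with Trim Galore 0.6.6 and cutadapt 1.16, checked with FastQC and handled with SAMtools 1.5 on mm39. The authors mapped them with abismal and used MethPipe, whose versions are not given in the sources used here. The deposited tables hold counts of methylated and unmethylated reads per CpG, both strands merged, for 4 pools (replicates and sexes combined). HMRs were deposited as positions for each pool and each library, and the positions were used. The deposited difference scores and candidate regions hold the authors' own comparison of subtypes and were not used.

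The 86245 merged HMRs of autosomes and the X chromosome gave 84472 on autosomes and 81983 eligible regions. Counts were summed over CpGs per region. All listed CpGs of the chromosomes tested were CG in the reference. Genes are from GENCODE M39; a gene part is that at the centre of the region, and exons without coding sequence were not divided into 5 prime and 3 prime. Fisher's exact tests were adjusted by Benjamini-Hochberg over all eligible regions and tested on simulated data. The simulated calls were independent and had no spread between libraries, so they cannot show how far the p-values of the real pools are too small. Intervals are 95% Wilson intervals. Named are the 12 regions of highest rank by the smaller fall (at least 100 calls per pool and 5 CpGs), up to 2 per gene list, genes with at least 3 regions, up to 3 regions per stage called between subtypes, and those at the threshold; Cog7, the other genes of the mature list, the secretory, metabolic and signalling genes and the motifs named were chosen after their values were seen. Same-numbered P60 libraries of the subtypes share a sex label and a run prefix, and their HMR calls deviated together (correlations of 0.14 to 0.31 across eligible regions). Differently numbered libraries had correlations of 0.01 to 0.24 with the same sex label and of -0.27 to -0.05 with the other. The shared deviation is thus not particular to same-numbered libraries. They were also compared as pairs, by exact permutation tests chosen after their values were seen. Some regions that this rule names are not reported here. The regions and the gene lists were chosen with earlier results of these data known. Alternatives were other falls, call minimums, lengths, gaps, levels, starts, overlaps and windows. Python 3.11.15 with numpy 2.4.6, pandas 2.3.3, scipy 1.17.1, pysam 0.24.0, numba 0.67.0 and matplotlib 3.10.9 was used.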

Additional observations from a re-analysis of the deposited data

Results flagged for a closer look

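The X chromosome was left out of the report because its level depends on the sex of the cells. By the same rule 4 of 1459 eligible X-chromosome regions fell by at least 20 points in both subtypes, or 0.274%, close to the 0.293% of the autosomes, and 15 (1.03%) rose. The count passed the limit of 3 that a count of 0 allows. A pair lay in introns of Chic1, at 47.7% and 58.9% in eYFP- cells at P2 and at 25.7% and 20.9% at P60. The others were in an intron of Dmd, from 34.3% to 8.33% in eYFP- cells, and 418085 bp from Magea13, from 41.2% to 17.9%. Each pool holds both sexes.

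Among the 240 autosomal regions the ratio of calls at P60 to calls at P2 ran from 0.630 to 4.48 around a median of 1.95, and the Myo3a and Tyrp1 regions were near its upper end. In the groups of 4 P60 libraries no share of falling regions stood apart by Dixon's criterion, with ratios of 0.551 in eYFP- and 0.179 in eYFP+ cells , below the limit for 4 samples.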

How the results depend on the processing

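The same-numbered P60 libraries of the subtypes were also paired (replicate block, chosen after seeing the data). The eYFP+ minus eYFP- difference was -4.79 points in the share of falling regions and -0.0851 in its ratio to all eligible regions. The exact permutation p were 0.250 and 0.125, but the falling regions were chosen by pools that hold the reads of these libraries. These p therefore cannot decide whether the subtypes differ. The Fisher's exact tests compare pools and could not be paired. The number of falling regions depended mainly on the size of the fall, with 579 regions at 15 points and 54 at 30 points. At 15 points the median P2 levels were 33.6% in eYFP- and 36.4% in eYFP+ cells, the median smaller fall 19.1 points, the regions called between subtypes 31 at P60 and 13 at P2, the mean share overlapped by P2 libraries 11.1% and 10.4%, and 52 regions were nearest to a gene of any list. At 30 points these values, in the same order, were 49.6%, 52.6%, 33.8 points, 5, 0, 4.63%, 5.56% and 8, with P60 levels of 10.4% and 11.5%, a median distance of 12106 bp, 5 regions on the mature b-cell list and 0 with the GATA motif. The lower counts follow from the fewer regions left. A minimum of 30 calls moved the mean share in P2 eYFP- libraries to 6.57%, and one of 100 calls moved the P2 shares to 7.71% and 7.01%. Regions of at least 200 bp had 1.82 CpGs per 100 bp and a length of 352 bp. With starts of every biotype the median distance was 5581 bp, and 7 falling regions were nearest to a gene of any list, 5 of them of the mature b-cell list. The matching shares of all eligible regions were not counted. Asking in addition for a difference of 10 points left 8 falling regions and 545 eligible regions called at P60 and 994 eligible regions at P2. Counting an HMR only over at least 50% of a region gave 2.92% and 2.29% at P2. A 500 bp window gave 15.8% for FOXA and 29.6% for AGGTCA. Leaving out each replicate gave mean shares of 6.67% to 7.08% and 5.83% to 6.67% at P2 and of 38.8% to 45.6% and 35.4% to 40.8% at P60 in eYFP- and eYFP+ cells. Taking the mean of CpG levels gave 241 regions, of which 212 were shared with the 240. All 68 smaller falls of the 34 named regions under the mean of CpG levels and the minimum of 10 calls per CpG stayed within counting error, the lowest at 17.9 points. Depth limits single CpGs most, with a mean near 24 calls at P2, and single libraries carry no counts, so that the spread between mice cannot be given for a level.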
